A study of Saccharomyces cerevisiae with 4 samples.

Results

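The 48 deletion strains described here lack genes of the early secretory pathway or of the exocyst of budding yeast, Saccharomyces cerevisiae. They were chosen by name, with earlier results of these data known. Spots were matched through the gene symbol that the array platform gives to each or its current form. All 48 were found among 5325 named strains. Haploid cells are known not to survive without 39 of these genes, which are called lethal members below. This class, like the essential reference used later, was assigned from textbook knowledge, since no deposited value gives it. The other deletions are viable (ERV14, ERV25, EMP24, SEC28, SEC22, TRS33, TRS65 and TRS85), except that for SEC3 both outcomes are known and it was put in neither class.

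The strains came from a pool of 5896 heterozygous deletion diploids in which the chromosomal copy of CDC102 (the current PSF2, a subunit of the GINS complex of DNA replication) had been replaced with natMX, a marker of resistance to nourseothricin (Nat). A centromeric URA3 plasmid then supplied either the allele cdc102-1 or wild-type CDC102, the pools were sporulated, and spores grew for 2 days at 28 or 30 degree without uracil, on plates with or without Nat. Haploids on the Nat plates carried both disruptions, and plates without the drug held single and double mutants. Strain tags amplified from genomic DNA were labelled with Cy5 (plates without Nat) or Cy3 (Nat plates) and compared on 1 array for each plasmid and temperature, 4 in all. All 4 groups thus shared the natMX disruption and a covering plasmid and had no replicate, and the descriptions of both wild-type arrays also call the sporulated pool cdc102-1, so the titles were followed.

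Secretory proteins leave the endoplasmic reticulum (ER) in vesicles coated by COPII, and COPI vesicles return escaped proteins and receptors from the Golgi. Tethers such as Uso1 and the TRAPP complexes, the latter being exchange factors for Rab GTPases such as Ypt1, guide vesicles to the Golgi, where SNARE proteins drive fusion. At the cell surface the exocyst, the Rab GTPase Sec4 and a second set of SNAREs deliver vesicles to the growing bud. Since most of these genes are essential, a spore that inherits the deletion forms no colony, and the question was whether these strains differ between the plasmids or stay at the level of other strains with no living haploid.

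The deposited value of a spot is the log2 ratio of both dyes. Cy5 over Cy3 is the likely direction, since the labels list the Cy5 sample first, and a low ratio would then mean relatively more tag from the Nat plates; this is not stated, so values are given only as higher or lower. Spots of a strain were averaged and each array was centred on the median of the 5288 strains measured on all 4 arrays, so a level of 0 is the median strain on the log2 scale. The SD over these strains lay between 0.65 and 1.03, and the cdc102-1 array at 30 degree had the widest spread and 725 named spots without a value, against 16 to 396 on the others. Each strain has a first and a second tag, read by 1 spot each for 44 of the members and by several for SEC22, TRS33, TRS65 and TRS85, which had 12 spots each. The PSF2 deletion strain itself stood at levels between -0.14 and 0.36. None of the members lies on chromosome X, which carries PSF2. Fewer cells of a strain and less tag amplified per cell cannot be told apart in these ratios. Precision is limited by there being 4 arrays.

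The median of the lethal members lay well below the median strain on every array, and that of the viable members lay slightly above it. Medians over the 38 lethal members measured on all arrays were -1.10 and -1.24 with cdc102-1 (28 and 30 degree) and -0.95 and -1.08 with CDC102, which are 0.467, 0.423, 0.517 and 0.473 of the median strain's ratio. Those of the 8 viable members were 0.18 and 0.59 with cdc102-1 and 0.13 and 0.39 with CDC102. Of the lethal members, 30 (78.9%) were below the median on all 4 arrays and 0 were above it on all 4, where 27.6% of all strains were below and 26.7% above. No viable member was below on all 4, and ERV25 and TRS85 were above on all 4.

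An essential reference of 95 genes outside the secretory pathway (transfer RNA synthetases, RNA polymerases, the proteasome, the chaperonin, translation factors and general transcription factors) had lower levels as well. Over its 92 strains with complete data, medians were -0.63 and -0.96 with cdc102-1 and -0.66 and -0.90 with CDC102, and 49 strains (53.3%) were below the median on all arrays. A further 13 strains that cannot make arginine, histidine, leucine or uracil had medians of -0.86, -0.99, -0.96 and -0.75 in the same order. The median of the lethal members was below that of the essential reference on each of the 4 arrays, with the lists overlapping widely. On all 4 arrays at once, 30 of 38 lethal members lay between the 5th and the 95th percentile of that reference. No test was made of these list medians, since strains are not replicates of a condition.

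**Figure D1:**
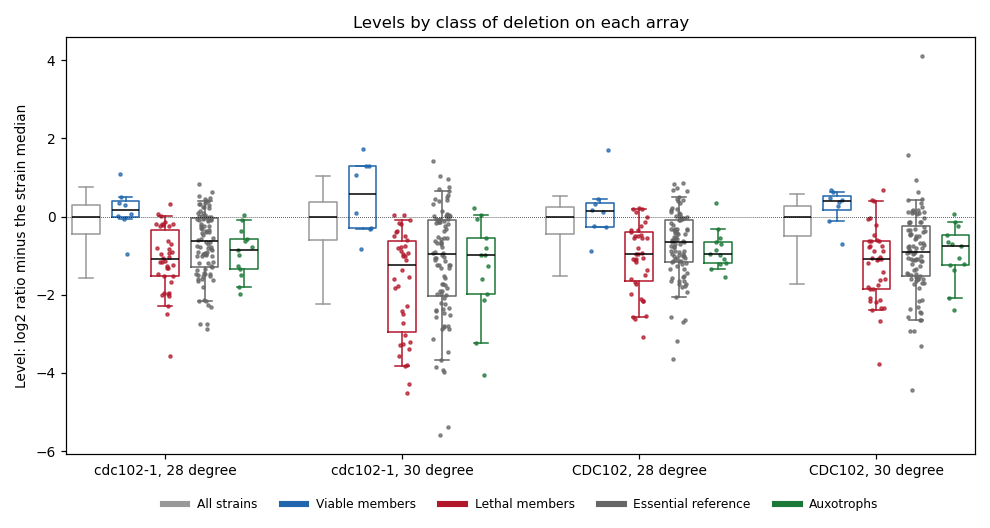
Level of each strain (log2 ratio minus the array's strain median, y axis) on the 4 arrays (x axis), by class; boxes span the quartiles with the median as a line, whiskers the 5th to 95th percentiles, and points are single strains (not drawn for all 5288 strains). Medians of the lethal members (between -1.24 and -0.95), the essential reference and the auxotrophs lie below 0 on each array. Medians of the viable members lie above 0, and each class has single strains on either side of 0.

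Levels of -1 or lower were found for 21 and 22 of the 38 lethal members with cdc102-1 at 28 and 30 degree, and for 18 and 22 with CDC102. Among all strains the shares were 11.8%, 16.8%, 11.3% and 13.8%, and in the essential reference 30, 45, 32 and 41 of 92. None of the viable members was at -1 or lower on any array. By the mean of the 4 arrays, 18 lethal members (47.4%) were among the lowest 9.98% of all strains, as were 33.7% of the essential reference.

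The COPII genes ranged from strains near the median to strains far below it, with SEC23 above it on both wild-type arrays. SAR1, the GTPase that starts coat assembly, had levels of 0.07 and 0.05 with cdc102-1 and 0.22 and -0.07 with CDC102 (28 and 30 degree), the highest mean level of any lethal member with complete data, 0.07. SEC16, the scaffold of ER exit sites, and SEC24, the cargo-binding coat subunit, stayed between -0.36 and 0.04. SEC31, of the outer coat, was at -1.52 and -4.52 with cdc102-1 and at -2.57 and -1.02 with CDC102. The -4.52 joined tags at -6.37, the lowest ratio step of 0.01, and -2.67. SEC12, the exchange factor of Sar1, was at -0.84 and -1.54, and at -1.15 and -2.34. SEC23, the partner of Sec24, had no value on the cdc102-1 array at 30 degree and so was not among the 47 members of the fits over all 4 arrays. Its other levels were -0.20 with cdc102-1 at 28 degree and 1.64 and 1.29 with CDC102, the highest of the lethal members on both wild-type arrays. The 1.64 joined tags at 2.86 and 0.43, and the 1.29 rests on the first tag alone.

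The cargo receptors and their adaptors were viable members with mixed levels. ERV25 and EMP24, which form a p24 complex that sorts cargo into COPII vesicles, did not move alike. ERV25 had levels of 0.49 and 1.07 with cdc102-1 and 1.71 and 0.48 with CDC102, while EMP24 had 0.05 and -0.82, and -0.87 and -0.70. The value of ERV25 on the CDC102 array at 28 degree came from tags at 0.23 and 3.19. For EMP24 with cdc102-1, the 0.05 joined tags at -0.87 and 0.98, and the -0.82 rests on the second tag alone. ERV14, a receptor for membrane proteins, kept between -0.32 and 0.26.

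Among the COPI genes the 6 lethal members had mean levels between -1.54 and -0.54. COP1 (alpha subunit) was at -1.32 and -3.21 with cdc102-1 and at -0.56 and -1.07 with CDC102. SEC26 (beta subunit) was at -1.02 and -1.01, and at -1.60 and -1.18. SEC21 (gamma subunit) was at 0.01 and -1.82 with cdc102-1 and at 0.11 and -1.64 with CDC102, but the last value rests on the first tag alone. That tag was at -0.06 and -3.05 with cdc102-1 and at -0.95 and -1.64 with CDC102, and the second was at 1.17 with CDC102 at 28 degree. SEC28, the epsilon subunit and the viable member of the coat, was at -0.96 and 1.30 with cdc102-1 and at 0.11 and 0.37 with CDC102. Its level of -0.96 joined tags at -2.75 and 0.83.

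The SNAREs of the ER and Golgi and the fusion factors SEC17 and SEC18 had mean levels between -1.29 (SED5) and -0.61 (SEC18), apart from the viable SEC22. SEC22, a SNARE that works in both directions between ER and Golgi, was at 0.35 and 1.30 with cdc102-1 and at -0.27 and 0.63 with CDC102, and its mean of 0.50 was at percentile 92.6 of all strains. BET1, a SNARE of ER-derived vesicles, was at -0.20 and -1.02 with cdc102-1 and lower, at -0.93 and -2.38, with CDC102.

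The Rab GTPase YPT1 was among the lowest strains of the array. It stood at -2.50 and -3.29 with cdc102-1 and at -2.10 and -2.68 with CDC102, a mean 6.25-fold below the median strain. USO1, the long coiled-coil tether that acts with Ypt1, was at -1.14 and -2.29, and at -0.38 and -1.84.

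The TRAPP complexes held members of every kind. TRS85, the subunit that marks the TRAPP form used in autophagy, had the highest mean level of all members, 0.99, with 1.09 and 1.72 with cdc102-1 and 0.45 and 0.69 with CDC102. It was higher with cdc102-1 at both temperatures, as were 30.4% of all strains. TRS33 and TRS65, the other viable subunits, stayed between -0.30 and 0.41. TRS120, a subunit of the TRAPP form that acts at the late Golgi, had the lowest mean level of the complex, -2.49, with -2.29 and -4.29 with cdc102-1 and -1.98 and -1.42 with CDC102. BET5, a core subunit, was at -0.81 and -3.79, and at -0.96 and -2.09. The core subunits TRS31, TRS23 and BET3 were lethal members nearer the median by mean level, at -0.20, -0.40 and -0.45. Single levels were lower, with TRS31 at -1.48 and TRS23 at -1.05 with cdc102-1 at 28 degree. BET3 was at -1.37 with cdc102-1 at 30 degree. The first tag of TRS23 lay between -0.30 and 1.44 and the second between -1.81 and -0.61.

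In the exocyst all 7 subunits among the 48 members, including SEC3, were below the median on all 4 arrays. So were 27.6% of all strains and 53.3% of the essential reference. The median of the 7 exocyst members was -1.96 and -2.50 with cdc102-1 and -1.73 and -1.61 with CDC102. EXO84 was at -1.99 and -3.39 with cdc102-1 and at -1.73 and -2.14 with CDC102. Only its second tag was far below the median, between -6.37 and -3.30, while its first lay between -0.83 and 0.47. SEC5 was at -2.00 and -3.57, and at -2.16 and -1.61, with the -3.57 from the first tag alone. SEC10 and SEC8 also had mean levels near -2, of -1.99 and -2.18. SEC3, SEC6 and SEC15 were milder, with means of -0.79, -0.91 and -1.10.

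SEC9, the SNARE of the plasma membrane that joins vesicle and target membrane, had the lowest mean level of all members. Its levels were -3.56 and -3.81 with cdc102-1 and -3.09 and -3.78 with CDC102, a mean 11.8-fold below the median strain, and its tags gave levels between -4.44 and -2.88. SEC2, the exchange factor of Sec4, had a mean level of -2.32 and SEC4 itself one of -0.43. SEC1, which binds the assembled SNAREs, was at -1.95 and -2.71 with cdc102-1 and at -0.48 and -0.74 with CDC102. It was thus lower with cdc102-1 at both temperatures, as were 27.6% of all strains. At 28 degree its second tag differed by -0.08. Of the Golgi exit genes, SEC7 (an Arf exchange factor) lay between -0.95 and 0.39 and SEC14 (a phospholipid transfer protein) between -1.26 and -0.49.

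**Figure D2:**
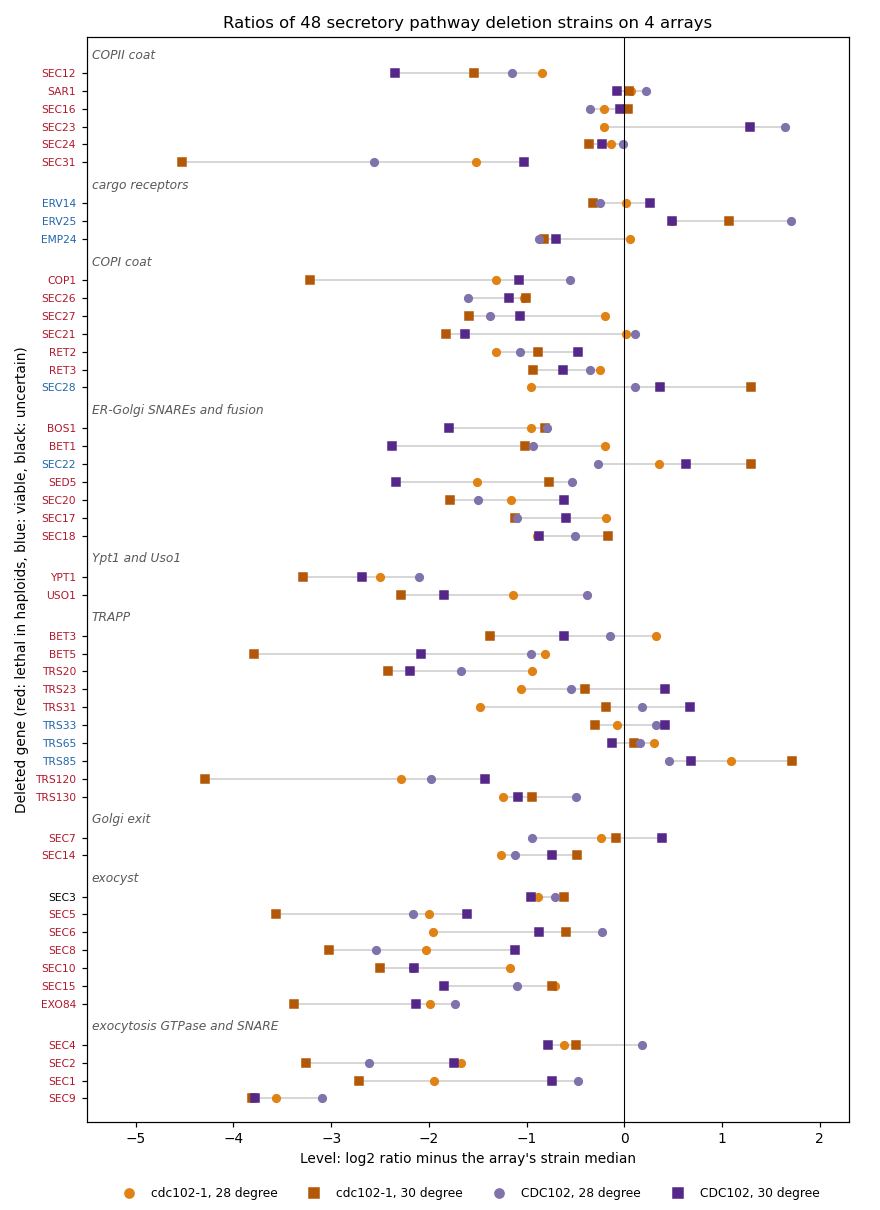
Level of each of the 48 members (x axis, log2 ratio minus the array's strain median) on the 4 arrays, grouped by role (y axis); orange marks are cdc102-1 and purple marks CDC102, circles 28 and squares 30 degree, and a grey line joins the lowest and highest value. Red names are lethal and blue names viable members; SEC9 and YPT1 are low on every array, and TRS85 is the highest on average.

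The comparison of cdc102-1 with CDC102 asks which of these deletions are recovered differently when replication depends on the mutant allele. No member differed past the adjusted threshold. By size, lower ratios with cdc102-1 were found for a larger share of members than of all strains, most of them at 30 degree. The share was not larger than in the essential reference. At 28 and 30 degree it was 10.6% and 21.3% of members, and 10.9% and 26.1% of that reference. In limma's additive fit of plasmid and temperature, 0 of 47 members passed an adjusted p of 0.05, as did 0.0% of all 5288 strains, and the smallest adjusted p among members was 0.553. The fit has 1 residual degree of freedom among arrays, and its p-values rest on scatter among 4 arrays that may be purely technical, as the labels name no independent cultures. At an unadjusted p under 0.05 stood 7 members and 8.74% of all strains. Of the members, 3 were higher with cdc102-1 (BET1, TRS85 and SEC22) and 4 lower (SEC1, COP1, TRS31 and TRS23), where 5.35% of all strains were higher and 3.39% lower.

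The median mean difference (cdc102-1 minus CDC102) was -0.14 over the 47 members, -0.19 over the lethal members and 0.06 over the viable members, beside 0.01 over all strains and -0.08 over the essential reference. At 28 and 30 degree apart, the lethal median was -0.11 and -0.38, that of the essential reference 0.11 and 0.125, and that of all strains 0.01 and 0.02. Lethal members were higher at both temperatures in 13.2% and lower in 31.6% of cases, and the essential reference in 28.3% and 17.4%. A higher ratio with cdc102-1 at both temperatures was found for 8 members (30.4% of all strains) and a lower ratio at both for 13 (27.6% of all strains). The other 26 members (55.3%) had opposite signs, as did 42.0% of all strains and 54.3% of the essential reference.

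SEC1 (YDR164C, chromosome IV) had the lowest difference, -1.72 ± 0.24 (SE of the fit over 4 arrays), a 3.29-fold lower ratio with cdc102-1, with -1.47 at 28 and -1.97 at 30 degree. It was the member past a size of 1 at both temperatures on the lower side, where 0.681% of all strains were, and no member was past it on the higher side (1.32% of all strains). TRS120 (-1.59 ± 0.73), COP1 (-1.45 ± 0.43), TRS31 (-1.26 ± 0.30), SEC31 (-1.23 ± 1.27) and SEC5 (-0.90 ± 0.62) followed. Fits with 1 array left out have no temperature term, so their values mix plasmid and temperature. Without the cdc102-1 array at 30 degree, COP1 stood at -0.50, TRS120 at -0.58, SEC5 at -0.11 and SEC31 at 0.27, and without the one at 28 degree TRS31 stood at -0.62. Of these, TRS31 had -1.66 and -0.86 at 28 and 30 degree and COP1 -0.76 and -2.14, both with 1 direction. For TRS120 and SEC5 the difference lay at 30 degree, -2.86 and -1.96, against -0.31 and 0.17 at 28 degree. The SEC5 value at 30 degree sets the first tag alone with cdc102-1 against both tags with CDC102. Its first tag on both sides gave -1.93.

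The highest differences were smaller. BET1 was higher with cdc102-1 by 1.05 ± 0.26, with 0.74 at 28 and 1.36 at 30 degree. TRS85 was higher by 0.84 ± 0.23, with 0.64 and 1.03. SEC15, an exocyst subunit, was higher by 0.74 ± 0.28 and SEC22 by 0.64 ± 0.20. SEC12 at 0.55 ± 0.24 and BOS1, the SNARE partner of Bet1, at 0.41 ± 0.37 complete the 6. Sizes differed between the first and the second tag, with mean differences of 0.37 and 1.73 for BET1. They were 1.05 and 0.24 for SEC22, 1.08 and 0.02 for SEC12, and 0.92 and 0.56 for SEC15. Here too, values with 1 array left out mix plasmid and temperature. Without the CDC102 array at 30 degree, BET1 stood at 0.33, SEC15 at 0.37, SEC12 at -0.04 and BOS1 at -0.09. Without the cdc102-1 array at 30 degree, SEC22 stood at 0.17 and TRS85 at 0.52, and quantile normalization gave TRS85 0.32. The deletions of BET1, SEC15, SEC12 and BOS1 had mean levels of -1.66, -1.47, -1.75 and -1.29 with CDC102 and of -0.61, -0.73, -1.19 and -0.88 with cdc102-1, so they stayed below the median strain with either plasmid. TRS85 and SEC22 went from 0.57 and 0.18 to 1.41 and 0.83. The other viable members differed by -0.56 ± 0.22 (TRS33), 0.40 ± 0.35 (EMP24), -0.32 ± 0.54 (ERV25), 0.19 ± 0.20 (TRS65), -0.15 ± 0.31 (ERV14) and -0.07 ± 0.58 (SEC28).

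Counted by size at each temperature, lower ratios with cdc102-1 were more frequent among members than higher ones. The essential reference had a similar share of lower ratios at each temperature. At 28 degree 2 members (SEC31 and SEC27) were higher by at least 1 and 5 lower (ERV25, SEC28, TRS31, SEC6 and SEC1), against 3.93% and 2.84% of all strains. In the essential reference 10 of 92 (10.9%) were higher and 10 lower, beside 10.6% of members lower. SEC23, which is outside this count, was lower by 1.85 at 28 degree. At 30 degree 4 members were higher (BET1, SED5, TRS85 and SEC15) and 10 lower, against 7.77% and 7.92% of all strains. The 10 were SEC31, COP1, SEC20, BET5, TRS120, SEC1, SEC2, SEC5, SEC8 and EXO84, all lethal members. They made up 26.3% of the 38 lethal members, and 26.1% of the essential reference (24 of 92) was lower by as much. For EXO84 the first tag gave 0.43 at 30 degree and the second -2.93. With cdc102-1 at 30 degree, SEC5 and SEC20 were read by the first tag alone. SEC31 was past 1 in opposite directions at the 2 temperatures, as were 0.908% of all strains. These counts set 1 array against 1 and have no test.

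**Figure D3:**
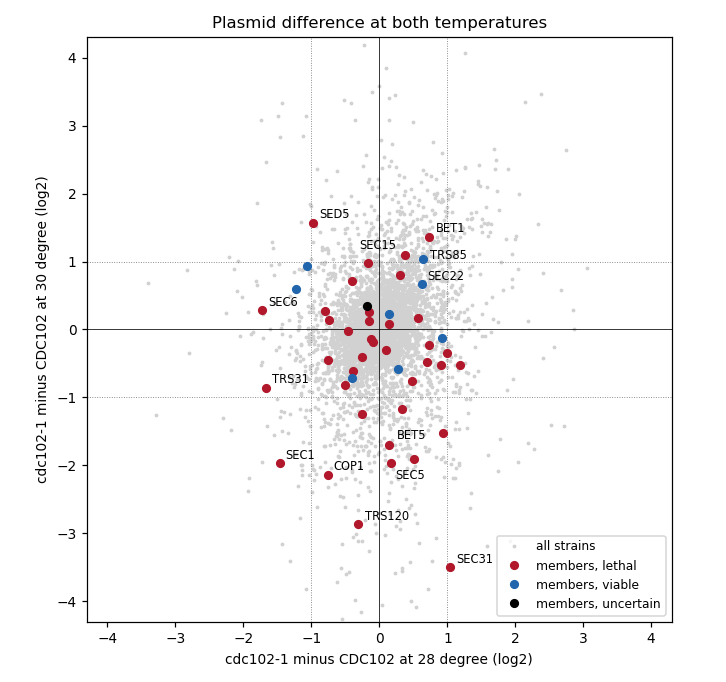
Difference cdc102-1 minus CDC102 (log2) at 28 degree (x axis) and at 30 degree (y axis) for 47 members (red lethal, blue viable, black uncertain) over all strains (grey; 14 strains lie outside the limits); dotted lines mark a size of 1. SEC1 is the member past 1 in the same direction on both axes, and SEC31 is past 1 in opposite directions.

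The tags of a strain often disagreed among the members, as they did among other essential strains. Of 41 members with both tags on all arrays, 9 had tags within 1 of each other on every array, against 65.2% of all strains. Among the lethal members the count was 5 of 33 (15.2%), and in the essential reference 9 of 70 (12.9%). Of the viable members, 4 of 7 had such tags. The Pearson correlation between tags over members was between 0.24 and 0.45 on the 4 arrays (43 to 48 members), beside 0.30 to 0.47 over all strains, where strains share an array and are not replicates. Low ratios are coarse as well, since deposited ratios moved in steps of 0.01 and 15 of 535 member values were at a ratio of 0.05 or less. On the cdc102-1 array at 30 degree, the first tags of SEC31 and BET5 and the second tag of EXO84 were at the lowest step, 0.01. The second tag of SED5, at -5.44 with CDC102 at 30 degree, was also among the 15.

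Read from each tag at each temperature, 5 members were higher with cdc102-1 in every reading (BET1, SEC22, TRS65, TRS85 and SEC15) and 5 were lower (COP1, TRS23, TRS31, TRS33 and SEC1), against 16.3% and 13.9% of all strains with both tags. Sizes still differed between the tags. TRS85 had similar values, 0.57 and 0.86 with the first tag and 0.71 and 1.21 with the second (28 and 30 degree). TRS33 also had similar ones, -0.37 and -0.66, and -0.43 and -0.77. For SEC1 the first tag gave -2.86 and -1.47, and the second -0.08 and -2.47. For TRS31 the first tag gave -3.07 and -1.19 and the second -0.25 and -0.53. SED5, the Golgi SNARE, had the widest gap, with -2.23 from the first and 5.37 from the second tag at 30 degree. For SEC31 the mean difference was -3.37 with the first tag and 0.92 with the second, and for SEC17 it was 2.05 and -1.66.

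**Figure D4:**
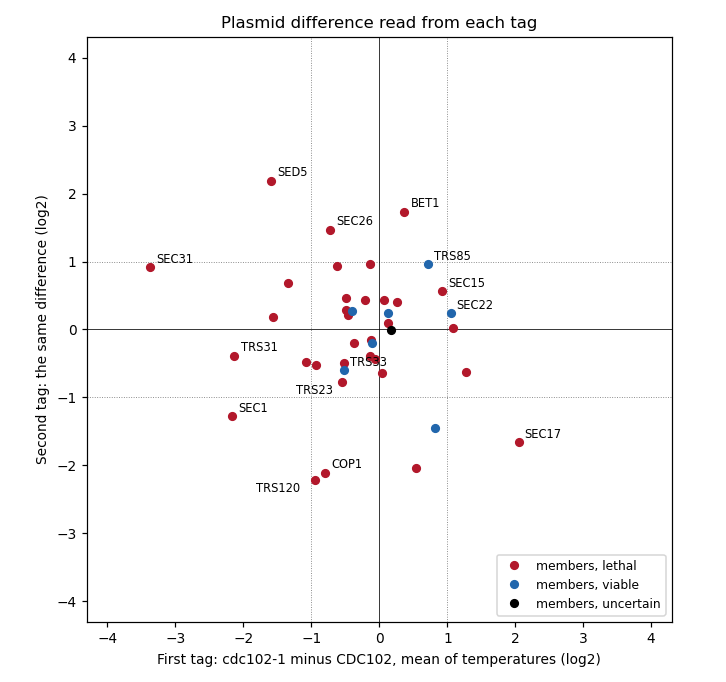
Mean plasmid difference (log2, over both temperatures) of each member with both tags, read from the first tag (x axis) and from the second (y axis); red lethal, blue viable, black uncertain, dotted lines at a size of 1. TRS33 and TRS85 have similar values on both axes, while SEC31, SED5 and SEC17 have opposite signs.

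The comparison of 30 with 28 degree, averaged over both plasmids, gave no member past the adjusted threshold either. In the same limma fit 0 of 47 members and 0.0% of all strains passed, with a smallest adjusted p among members of 0.825. At an unadjusted p under 0.05 stood 9 members and 5.58% of all strains. Of the members, 2 were higher at 30 degree (SEC22 and TRS23) and 7 lower (SEC12, SEC21, BET1, YPT1, USO1, BET5 and TRS20), against 1.63% and 3.95% of all strains. In the essential reference 14 of 92 (15.2%) were lower at that level, and 7 of 38 lethal members (18.4%). The median difference was -0.35 over members and -0.28 over the essential reference, against 0.00 over all strains.

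The lowest temperature differences were those of BET5 (-2.05 ± 0.55), SEC21 (-1.79 ± 0.20), USO1 (-1.30 ± 0.22) and COP1 (-1.21 ± 0.43). SEC21 had -1.84 and -1.75 and USO1 -1.14 and -1.46 (cdc102-1 and CDC102). The SEC21 value with CDC102 sets both tags at 28 degree against the first tag alone at 30 degree, and the first tag's levels given above differ far more with cdc102-1 than with CDC102. For USO1 the cdc102-1 level at 30 degree rests on the second tag alone. BET5 had -2.98 and -1.13, and its tags differed widely. The first tag was at -0.72 and -6.37 with cdc102-1 (28 and 30 degree) and at -1.30 and -3.64 with CDC102, while the second stayed between -1.20 and -0.54. Fits of temperature with 1 array left out have no plasmid term, so their values mix both factors. Without the cdc102-1 array at 30 degree, BET5 stood at -1.20 and COP1 at -0.14, and the first tag alone gave COP1 -0.32. On the higher side were SEC28 (1.26 ± 0.58), SEC22 (0.93 ± 0.20), TRS31 (0.89 ± 0.30) and TRS23 (0.81 ± 0.22). SEC22 had 0.95 with cdc102-1 and 0.90 with CDC102, whereas SEC28 had 2.26 and 0.26. TRS31 stood at 0.06 without the cdc102-1 array at 28 degree and at 0.02 with the second tag, SEC28 at 0.73 without that array, SEC22 at 0.59 without the cdc102-1 array at 30 degree, and TRS23 at 0.40 without the CDC102 array at 30 degree.

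**Figure D5:**
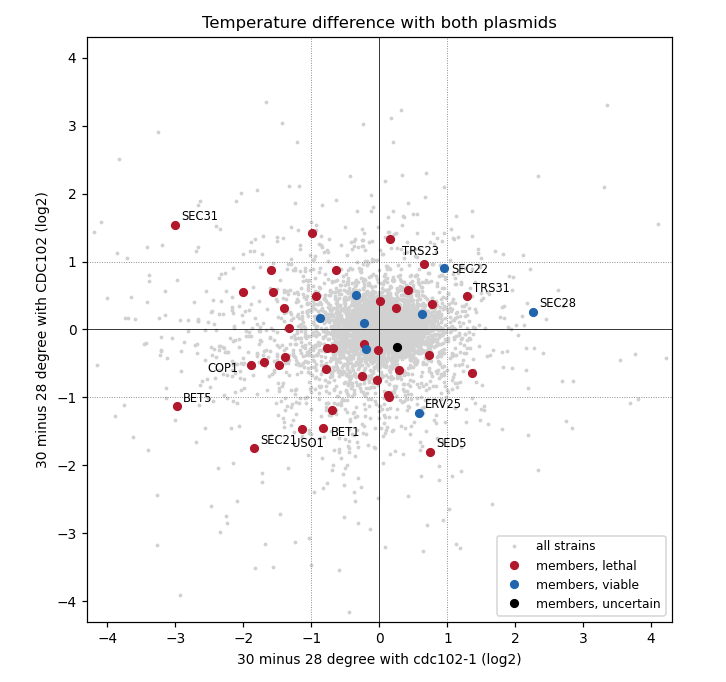
Difference 30 minus 28 degree (log2) with cdc102-1 (x axis) and with CDC102 (y axis) for 47 members (red lethal, blue viable, black uncertain) over all strains (grey; 5 strains lie outside the limits); dotted lines mark a size of 1. SEC21, USO1 and BET5 are past -1 on both axes, and SEC22 has 0.95 and 0.90.

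Other genes of the pathway, from lists chosen by function, also had no strain past the adjusted threshold for the plasmid. Of 35 measured early secretory genes outside the members, 14 (40.0%) were higher and 9 (25.7%) lower at both temperatures, against 30.4% and 27.6% of all strains. Their median difference was 0.12 and their median mean level 0.05. The largest belonged to GYP1, the GTPase-activating protein of Ypt1, higher by 1.37 ± 0.28 with levels of 1.68 and 2.57 with cdc102-1 and 0.68 and 0.84 with CDC102. YKT6, a SNARE of several transport steps, was higher by 1.20 ± 0.39, ERV41, a cargo receptor, by 1.11 ± 0.40 and GCS1, an Arf GTPase-activating protein, by 1.00 ± 0.45. With its second tag alone, the ERV41 difference was 0.16, and the first was not read on every array.

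Of 18 further genes of exocytosis, 7 (38.9%) were higher and 3 (16.7%) lower at both temperatures, against 30.4% and 27.6% of all strains. Their median difference was 0.12. MRS6, the Rab escort protein needed to attach lipid to Rab GTPases, was higher by 1.60 ± 0.20, with levels of 0.06 and 0.31 with cdc102-1 and -1.58 and -1.24 with CDC102. MYO2, the myosin that carries secretory vesicles, was higher by 0.98 ± 0.22, though the first tag alone gave -0.01 and the second was not read on every array. EXO70, the exocyst subunit that is not among the 48, had -0.92 at 28 and 2.37 at 30 degree. SRO7, which binds Sec9, was higher by 0.48 ± 0.21, with 0.95 from the first tag and 0.0041 from the second.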

How the data were processed

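Per the labels, tags amplified by PCR from genomic DNA were hybridised to a Hopkins tag array, scanned with a GenePix instrument and read with its software, with Cy5 and Cy3 on the same plates throughout and no dye swap. The deposited values are log2 ratios, made by the authors from ratios rounded to 0.01 (100.0% of values within 0.1% of such a step). No source used here gives the numerator, background correction or dye normalization. A stand-in ratio of 1000000 in 10 cells was left out. Column medians were -0.14, -0.17, -0.14 and -0.15.

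Spots were named through the platform annotation (18794 of 22575 with 1 gene, 3781 with none), and 5321 of 5325 gene identifiers matched the reference gene table (assembly R64), used for names, loci and chromosomes only. Partner spots lie 10971 spot numbers apart; which block holds the uptags is not told. Spots were averaged per strain, and the medians removed were -0.19, -0.27, -0.17 and -0.20. limma 3.58.1 in R 4.3.3 (lmFit, eBayes) fitted plasmid and temperature over 4 arrays and all complete strains with Benjamini-Hochberg adjustment at 0.05, and was tested on simulated data. A size of 1 on the log2 scale was used where 1 array stood against 1.

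Members named in full were the 6 highest and 6 lowest plasmid differences, the 4 highest and 4 lowest temperature differences and mean levels, all viable members and any past the size at both temperatures, and up to 4 genes of each other list. Other members with values serve to show their role group and were chosen with values seen. Members and lists were chosen with earlier results of these data known. The alternatives were other centring, quantile normalization, medians over spots, each tag alone, tag-agreeing strains, other models, each array left out and sizes of 0.8 and 1.5. No tag sequence was used here.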

Additional observations from a re-analysis of the deposited data

Results flagged for a closer look

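SEC31, of the outer COPII coat, was the member with plasmid differences past a size of 1 in opposite directions at the 2 temperatures, 1.05 at 28 degree and -3.50 at 30 degree (cdc102-1 minus CDC102), a pattern found for 0.908% of all strains. The difference between temperatures was not tested, with 1 array in each group. At 30 degree its first tag gave -5.86 and its second -1.14, and at 28 degree they gave -0.88 and 2.97. The -5.86 rests on a first-tag level of -6.37 with cdc102-1, which is the lowest ratio step, 0.01. The part of the tags in this result was not tested.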

How the results depend on the processing

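No replicate block could be added, since each plasmid and temperature had 1 array. Plasmids were compared within temperatures by the temperature term, and without it 0 members passed either (smallest adjusted p 0.534). For both terms, 0 members passed the adjusted threshold under every alternative run, with smallest adjusted p between 0.149 and 0.998 (plasmid) and between 0.0766 and 1.0 (temperature). The median plasmid difference of members (-0.14) became -0.0049 with quantile normalization, -0.25 and 0.0144 with the first and the second tag only, and 0.11 on the 9 members whose tags differed by under 1; with 1 array left out it ran from -0.27 to -0.0061. The median temperature difference (-0.35) was -0.40 without centring, -0.063 centred on the essential reference (which moves the median of all strains to 0.29), -0.0248 with quantile normalization, -0.36 with medians over spots, -0.17 and -0.39 with the first and second tag, and -0.10 on tag-agreeing strains; with 1 array left out it ran from -0.41 to -0.16. The cause of these shifts was not tested.

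Members past the size at both temperatures, 0 higher and 1 lower, became 2 and 2 with the first tag and 1 and 2 with the second; the lower count became 2 with quantile normalization or a size of 0.8, and 0 on tag-agreeing strains or at a size of 1.5. At 28 degree the 2 higher members became 6 (quantile or a size of 0.8), 5 and 7 (first and second tag), 1 (tag-agreeing) and 0 (size of 1.5), and the 5 lower became 8 (second tag), 1 (tag-agreeing) and 2 (size of 1.5). At 30 degree the 4 higher became 0 (tag-agreeing) and 1 (size of 1.5), and the 10 lower became 7 (quantile), 13 (first tag) and 0 (tag-agreeing). The lethal level averaged over arrays (-1.09) was -1.30 without centring, -0.31 centred on the essential reference, -1.25 with the second tag and -0.81 on 5 tag-agreeing strains; the viable level (0.32) was 1.11 centred on the essential reference and 0.0146 on 4 tag-agreeing strains.

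Signs turned for BOS1 (-0.13) and ERV25 (0.83) with the first tag, and for SEC28 (0.26) and SEC31 (0.91) with the second. With 1 array left out, plasmid differences ran from -0.09 to 0.91 for BOS1, -0.0331 to 0.84 for EMP24, -0.41 to 0.10 for ERV14, -0.93 to 0.30 for ERV25, -0.0413 to 1.15 for SEC12, -1.20 to 1.06 for SEC28 and -2.73 to 0.27 for SEC31. Others kept their sign but moved by over 1.5 times: COP1 from -2.40 to -0.50, TRS120 from -2.59 to -0.58, SEC5 from -1.68 to -0.11, TRS31 from -1.91 to -0.62, BET1 from 0.33 to 1.77, SEC22 from 0.17 to 1.12, SEC15 from 0.37 to 1.12, TRS85 from 0.52 to 1.15 and TRS65 from 0.0447 to 0.33. Temperature differences ran from -2.91 to -1.20 for BET5, -2.28 to -0.14 for COP1, 0.0565 to 1.72 for TRS31, 0.73 to 1.79 for SEC28, 0.59 to 1.26 for SEC22 and 0.40 to 1.22 for TRS23. Those fits drop the second factor, so they mix plasmid and temperature.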

Other observations

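Genes that carry proteins into the ER, the step before COPII transport, included viable and lethal deletions. Of 16 measured, 4 were higher and 1 lower with cdc102-1 at both temperatures, against 30.4% and 27.6% of all strains. Neither share exceeded that of all strains. The other 11 had opposite signs at the 2 temperatures, as did 42.0% of all strains. The median mean difference of the 16 was 0.03 and their median mean level -0.80. SEC66 and SEC72, the non-essential subunits of the Sec63 translocation complex, had similar values. SEC66 was at 1.01 and 1.83 with cdc102-1 (28 and 30 degree) and at 0.02 and 0.17 with CDC102, a difference of 1.33 ± 0.27. SEC72 was at 0.95 and 1.71, and at -0.06 and 0.25, a difference of 1.23 ± 0.23. Both deletions were among the 4 that were higher with cdc102-1 at both temperatures. SRP68 and SRP72, subunits of the signal recognition particle, differed by 0.98 ± 0.23 and -1.12 ± 1.10, the latter from 0.84 at 28 and -3.07 at 30 degree. In limma's fit none of these passed an adjusted p of 0.05 (0.553 for SEC66, SEC72 and SRP68).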
